A study of Mus musculus with 9 samples.

Results

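The transcripts described here encode the subunits of the proteasome, its activator caps and the chaperones that carry a proteasome subunit name. They were chosen by symbol alone: every gene named Psma, Psmb, Psmc, Psmd or Psme followed by digits and read by a probe set assigned to that gene only, without the immunoproteasome genes Psmb8, Psmb9 and Psmb10. This gave 39 of the 18193 genes measured. Psme2 is not among them because its probe set is also assigned to Psme2b. The tissue was epidermis scratched off frozen skin of mice on the hairless SKH1 background (5 backcross generations), and each mouse gave 1 Affymetrix array. The 5 mice labelled Alox12b fl/fl Cre, called Cre mice here, had the genotype p/p +/Cre: both Alox12b alleles were floxed, and Cre-ERT2, a recombinase that tamoxifen activates, was expressed under the cytokeratin K14 promoter, which is active in basal keratinocytes. The 4 mice labelled Alox12b fl/fl (p/p +/+), called control mice, were littermates with the same floxed alleles and no Cre. Mice of both groups were 8 weeks old, received 3 intraperitoneal injections of 1 mg tamoxifen in oil, and were killed 6 days after the treatment. No control mouse carried Cre, so loss of Alox12b and active Cre itself cannot be told apart. The labels call the arrays of a group biological replicates.

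The proteasome degrades proteins that carry ubiquitin. Its core is a barrel of stacked rings: the outer rings of alpha subunits form the gate, and the inner rings of beta subunits hold the proteolytic sites. A cap made of a base, whose ATPases unfold the substrate, and a lid, which removes the ubiquitin, sits on the ends of the barrel. In cells exposed to interferon gamma the catalytic beta subunits can be exchanged for those of the immunoproteasome, which favours peptides for presentation on MHC class I molecules. In many cell types the genes of the proteasome are transcribed together, under the transcription factor Nfe2l1 (NRF1). Alox12b itself encodes the epidermal lipoxygenase that oxidises linoleate in the ceramides of the skin barrier.

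The deposited values are on a log2 scale, and the differences below are Cre mice minus control mice on that scale, with the standard error from limma, a linear model fitted to all 45037 probe sets with Benjamini-Hochberg adjustment of the p-values over all of them. A gene rose or fell where the adjusted p was under 0.05. A gene with several probe sets is represented by the one whose mean across the 9 arrays is highest. Array medians ran from 4.34 to 4.39 for Cre mice and from 4.38 to 4.42 for control mice, and no pair of arrays held identical values. The spread of values differed between the groups without overlap. Its interquartile range was 3.74 to 3.91 on Cre arrays and 3.95 to 4.01 on control arrays. Results after quantile normalisation, which gives all arrays the same spread, are stated below. By Xist and Y-linked genes 3 of the 5 Cre mice were female, and of the 4 control mice only control replicate 1 was. With 9 arrays in all, the estimates are of limited precision. The Alox12b probe set read 10.07, 10.17, 10.04, 9.67 and 9.50 in Cre mice, against 9.40, 9.33, 9.20 and 9.19 in control mice, and was higher on every Cre array than on any control array. The sources used here do not say where it lies relative to the floxed exons, so it checks nothing about the deletion. Of 5 basal keratinocyte markers the summed level (log2 of the summed linear values) was 13.93 to 14.07 in Cre mice and 13.76 to 13.86 in control mice. Of the 5, Krt14 rose by 0.47, Trp63 fell by 0.35 and 3 did not pass.

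Most proteasome subunit transcripts were modestly higher in the epidermis of Cre mice. Of the 39 members 29 rose, 1 (Psmb1) fell and 9 did not pass, with a median difference of 0.29, and no member reached a 2-fold change. Over all genes 15.5% rose and 18.9% fell, 34.4% in all, and the median difference was 0.03. That balance of higher and lower genes moved with the scaling, to 3075 against 3033 after quantile normalisation and 3558 against 3037 with array medians subtracted. Whatever the test said, the difference was positive in 36 of the 39 members, and in 54.7% of all genes. The members are mostly bright transcripts, 30 of them with a mean log2 value of at least 9. Among the 1742 genes at that level, a limit chosen after the values were seen, 26.2% rose and 25.2% fell, with a median of 0.00, while 23 of the 30 members rose, 1 fell and 6 did not pass, with a median of 0.30. The Cre and control arrays did not overlap in 33 members, 32 of them higher in Cre mice, where 14.0% of all genes were higher without overlap and 17.6% were lower without overlap (31.6% in either direction).

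The shift was seen on each of the arrays. Measured from the mean of the control mice, the median over the 39 members was 0.28, 0.25, 0.29, 0.25 and 0.30 in Cre replicates 1 to 5, against 0.05, 0.01, -0.00 and -0.05 in control replicates 1 to 4. Over all genes with a mean of at least 9 that median was -0.03, 0.03, -0.01, 0.01 and 0.02 in Cre replicates 1 to 5. On every Cre array 33 members lay above the highest control array, a count for which no share over all genes is given here. Of the 30 calls, 23 held whichever single array was left out. The call of Psma2 was lost without any array other than Cre replicate 5, and that of Psmd13 without any array other than Cre replicate 3. Psmc5 lost its call without Cre replicates 2, 4 or 5 or control replicates 2, 3 or 4. Psma5 lost its call without control replicate 2, Psmb4 without control replicate 3 or 4, Psmd3 without control replicate 1 or 2, and Psmd9 without control replicate 2 or 4.

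**Figure D1:**
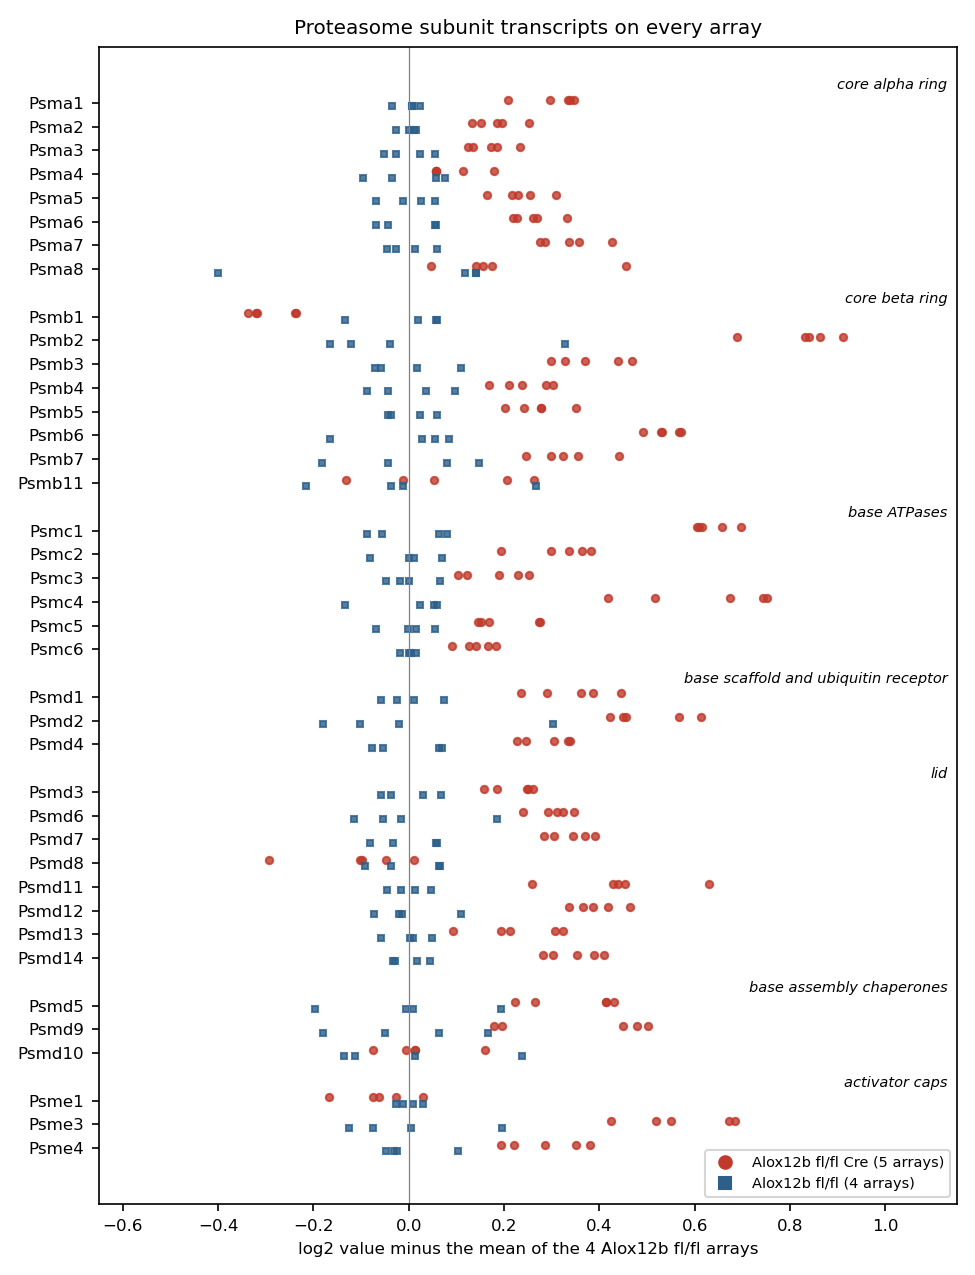
Each row is a proteasome gene, grouped by role, and each point is an array, placed by its log2 value minus the mean of the 4 Alox12b fl/fl arrays (circles, 5 Cre mice; squares, 4 control mice). In 32 rows all circles lie right of all squares, and Psmb1 is the row in which they all lie left.

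The alpha subunits form the outer rings and the gate of the core. Of 8 measured, 5 rose and none fell by limma (6 and 0 at an unadjusted p of 0.05), with differences of 0.09 to 0.34 and a median of 0.21. Psma7 read 9.75, 9.76, 9.83, 9.90 and 9.81 in Cre mice, against 9.49, 9.53, 9.43 and 9.45 in control mice. The groups were well apart, by 0.34 ± 0.06 (adjusted p = 0.00281), or 26.2% on the linear scale. Psma1 read 9.92, 9.91, 9.79, 9.87 and 9.93 in Cre mice, against 9.58, 9.59, 9.60 and 9.54 in control mice. It too was higher on every Cre array, by 0.31 ± 0.06 (adjusted p = 0.00397). Psma6, Psma5 and Psma2 rose by 0.26, 0.23 and 0.18. Without probe sets that can match several transcripts Psma5 differed by -0.069 and did not pass. That value is from a dim probe set (mean 2.77), while the other bright Psma5 probe set rose by 0.38 (adjusted p = 0.00333). Psma3 lay at 10.55 to 10.66 in Cre mice and 10.37 to 10.48 in control mice, without overlap, but its difference of 0.17 missed the threshold (adjusted p = 0.0607). Psma4 differed by 0.09 (95% interval -0.05 to 0.24) with overlapping groups. Psma8, the variant alpha subunit of the testis, was dim, with 2.61 to 3.01 in Cre mice and 2.16 to 2.70 in control mice, and its 0.19 did not pass.

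The beta ring showed the widest spread among the roles, with differences from -0.29 to 0.83. Of its 8 members 6 rose, 1 fell and 1 did not pass. Psmb2, a structural subunit, read 9.49, 9.34, 9.57, 9.50 and 9.52 in Cre mice, against 8.98, 8.62, 8.53 and 8.49 in control mice. Its difference of 0.83 ± 0.10 (adjusted p = 0.000235), 77.4% on the linear scale, was the largest of all members, and control replicate 1 stood highest among the controls. Leaving out a single array gave differences of 0.77 to 0.94. Psmb3 and Psmb4, also without catalytic activity, rose by 0.38 and 0.24.

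Psmb1, a further structural beta subunit, went the other way on its brightest probe set. It read 9.99, 9.89, 9.91, 9.91 and 9.99 in Cre mice, against 10.09, 10.29, 10.29 and 10.25 in control mice. The groups did not overlap, and the difference was -0.29 ± 0.07 (adjusted p = 0.00886). A dimmer Psmb1 probe set rose, with 5.00, 5.22, 5.43, 5.23 and 5.16 in Cre mice, against 4.92, 4.95, 4.83 and 4.67 in control mice, a difference of 0.36 (adjusted p = 0.0164). The remaining one read 0.02 (adjusted p = 0.850). The direction for Psmb1 is therefore that of a single probe set.

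The 3 constitutive catalytic subunits all rose. Psmb6, with the caspase-like site, read 9.83, 9.87, 9.79, 9.83 and 9.87 in Cre mice, against 9.39, 9.33, 9.36 and 9.14 in control mice. The gap was 0.54 ± 0.07 (adjusted p = 0.000303), or 45.2% on the linear scale. Psmb7, with the trypsin-like site, read 10.38, 10.27, 10.35, 10.32 and 10.47 in Cre mice, against 10.17, 10.10, 9.98 and 9.84 in control mice. The groups were separate, with a difference of 0.33 ± 0.08 (adjusted p = 0.0117). Psmb5, with the chymotrypsin-like site, read 9.89, 9.86, 9.82, 9.89 and 9.97 in Cre mice, against 9.64, 9.68, 9.57 and 9.58 in control mice. It was higher by 0.27 ± 0.06 (adjusted p = 0.00879). Psmb11, the catalytic subunit of thymus epithelium, was dim in both groups and differed by 0.08 (95% interval -0.17 to 0.32).

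Of their immunoproteasome counterparts, which are not among the 39 members, 2 fell and 1 did not pass. Psmb9, which takes the place of Psmb6, read 7.13, 7.19, 7.43, 7.27 and 7.83 in Cre mice, against 8.44, 8.18, 8.23 and 8.23 in control mice. It fell by 0.90 ± 0.14 (adjusted p = 0.000771), with Cre replicate 5 nearest to the controls. Psmb8, which takes the place of Psmb5, read 7.91, 7.60, 8.01, 7.83 and 8.25 in Cre mice, against 8.71, 8.70, 8.55 and 8.74 in control mice. It fell by 0.75 ± 0.12 (adjusted p = 0.000855), again with Cre replicate 5 nearest. These values are from the brighter of the 2 Psmb8 probe sets. Psmb10, which takes the place of Psmb7, read 7.13, 7.13, 6.86, 7.09 and 7.30 in Cre mice, against 7.05, 6.93, 7.03 and 7.06 in control mice. Those groups overlapped, and the 0.08 ± 0.09 did not pass (95% interval -0.11 to 0.28). Immunoproteasome subunits are abundant in immune cells, whose markers were lower in Cre mice: T cell markers fell in 4 of 5 measured (summed level 8.35 to 8.91 in Cre mice, 9.84 to 10.26 in control mice) and Langerhans cell markers in 4 of 4 (12.38 to 12.83 in Cre mice, 12.98 to 13.13 in control mice). Their part in the fall of Psmb8 and Psmb9 was not tested, and in whole epidermis fewer cells of a type and less RNA per cell cannot be told apart. Of all genes 18.9% fell. The summed levels weigh the brightest markers most. In control mice Thy1 averaged 9.41 against 8.00 for Cd3g, and Cd74 averaged 11.96 against 8.96 for Cd207.

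The balance within each array was compared as the log2 value of the immunoproteasome subunit minus that of its constitutive partner. Such a within-array difference shows unequal change of the 2 probe sets and gives no ratio of transcripts. For Psmb9 minus Psmb6 it was -2.47 ± 0.28 (SD, n = 5) in Cre mice and -1.03 ± 0.12 (SD, n = 4) in control mice, a change of -1.44. For Psmb8 minus Psmb5 it was -1.97 ± 0.21 (SD, n = 5) in Cre mice and -0.94 ± 0.08 (SD, n = 4) in control mice, a change of -1.02. With all probe sets of a gene averaged, the Psmb8 minus Psmb5 change was smaller, -0.79. In these 2 pairs no Cre array reached a control array (two-sided exact permutation p = 0.00794 for each, the smallest that the 126 splits of the arrays can give, and 0.0119 adjusted over the 3 pairs). The 2 subunits of each of these pairs already lay apart in opposite directions. This separation and its p therefore follow from the values above and add no support to them. For Psmb10 minus Psmb7 the change was -0.25, with overlapping groups and an exact permutation p of 0.0397 that is also its adjusted value. That call was lost after quantile normalisation (-0.11, exact permutation p = 0.341) and after cyclic loess (-0.18, exact permutation p = 0.175). Without Cre replicate 1, 2, 3, 4 or 5, or control replicate 1, 3 or 4, the adjusted p of that pair was 0.0536 to 0.107, with changes of -0.29 to -0.17.

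**Figure D2:**
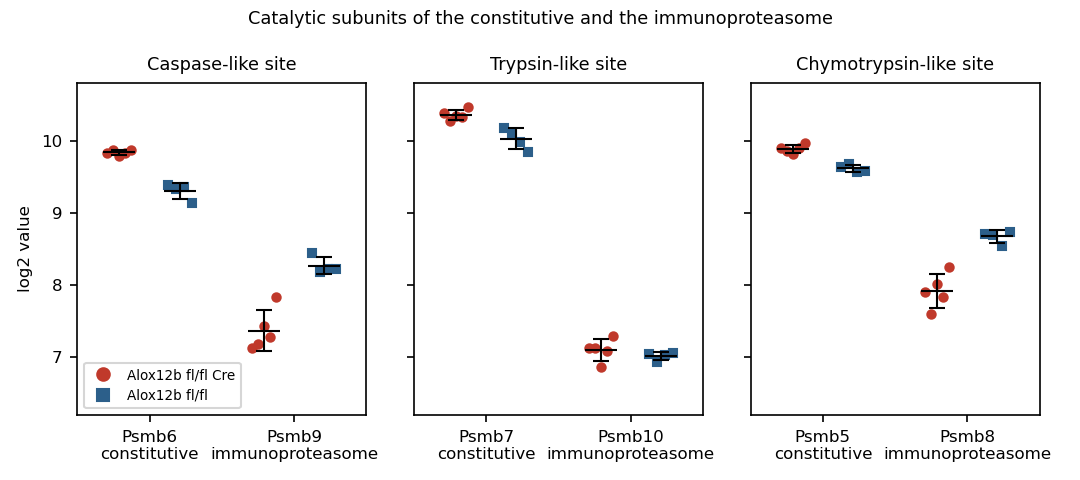
Log2 values of the constitutive and the immunoproteasome subunit of each proteolytic site (circles, 5 Cre mice; squares, 4 control mice; bars, mean ± SD). Psmb6, Psmb7 and Psmb5 are higher in Cre mice, Psmb9 and Psmb8 lower, and Psmb10 overlaps; heights of different genes come from different probes and cannot be set against each other.

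The 150 bases upstream of the transcription start are shown for the pairs that moved apart, since the constitutive and the immunoproteasome genes are known to answer to different regulators. They are from RefSeq (GRCm38.p6), 5′ to 3′ on the gene's strand. Capitals mark matches, on either strand, to TGACNNNGC, the core of the antioxidant response element that Nfe2l1 and Nfe2l2 recognise, or to TTCNNNGAA, the element recognised by STAT factors. The regions are chr14:54617996-54618145 (minus strand) for Psmb5, chr11:70525207-70525356 (plus strand) for Psmb6, chr17:34198045-34198194 (plus strand) for Psmb8 and chr17:34187331-34187480 (minus strand) for Psmb9.
Psmb5: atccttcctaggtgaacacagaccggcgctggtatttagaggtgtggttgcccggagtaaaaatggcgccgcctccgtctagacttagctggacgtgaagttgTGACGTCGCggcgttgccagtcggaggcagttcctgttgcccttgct
Psmb6: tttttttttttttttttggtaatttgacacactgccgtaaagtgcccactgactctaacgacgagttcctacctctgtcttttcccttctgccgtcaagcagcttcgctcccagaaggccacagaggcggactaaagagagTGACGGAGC
Psmb8: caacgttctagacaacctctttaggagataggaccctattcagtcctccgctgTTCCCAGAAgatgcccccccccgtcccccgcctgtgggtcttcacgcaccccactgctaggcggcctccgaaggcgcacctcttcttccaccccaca
Psmb9: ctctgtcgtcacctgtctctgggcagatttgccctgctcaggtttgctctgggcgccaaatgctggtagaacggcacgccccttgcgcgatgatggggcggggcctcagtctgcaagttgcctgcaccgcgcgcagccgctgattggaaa
Psmb5 and Psmb6 each hold 1 match to TGACNNNGC, 47 and 9 bases before the start, and Psmb8 holds 1 match to TTCNNNGAA. In windows of 300 bases (250 before to 50 after the start), 6 of the 32 members with an entry held TGACNNNGC (Psmb5, Psmb6, Psmc6, Psmd12, Psmd9 and Psme4). That is 18.8%, against 14.0% of all 27025 genes with an entry. CCAAT was found in 40.6% of these members and 41.1% of all genes, TTCNNNGAA in 1 member (Psmd2) and 9.55% of all genes, and GAAA, any 2 bases and GAAA, a core of interferon-stimulated elements, in 4 members (12.5%) and 3.99% of all genes. A match is a run of letters and no evidence of binding.

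The 6 ATPases of the base form the ring that unfolds substrates. All 6 had higher values on every Cre array than on any control array, and 4 passed the test. Psmc1 read 9.11, 9.16, 9.20, 9.11 and 9.12 in Cre mice, against 8.58, 8.45, 8.57 and 8.42 in control mice. Its difference of 0.64 ± 0.07, or 55.4% on the linear scale, had the lowest adjusted p of the members (7.03e-05). Psmc4 read 10.07, 10.06, 9.73, 9.83 and 9.99 in Cre mice, against 9.37, 9.18, 9.34 and 9.37 in control mice. It was higher by 0.62 ± 0.09 (adjusted p = 0.000547), with Cre replicates 3 and 4 lowest among the Cre arrays. Psmc2 read 10.57, 10.58, 10.40, 10.54 and 10.50 in Cre mice, against 10.20, 10.12, 10.27 and 10.21 in control mice, and rose by 0.31 without overlap. Psmc5 rose by 0.20. The smaller differences of Psmc3 and Psmc6, 0.18 and 0.14, missed the threshold (adjusted p = 0.0588 and 0.0933).

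The scaffold subunits of the base and its ubiquitin receptor rose as well, 3 of 3. Psmd2, the scaffold that docks ubiquitin carriers and the deubiquitinase Usp14, read 10.15, 10.15, 10.26, 10.12 and 10.31 in Cre mice, against 9.9999, 9.59, 9.68 and 9.52 in control mice. The difference was 0.50 ± 0.10 (adjusted p = 0.00394), and control replicate 1 lay nearest to the Cre arrays. Psmd1, the larger scaffold, read 9.78, 9.72, 9.70, 9.57 and 9.63 in Cre mice, against 9.35, 9.41, 9.31 and 9.28 in control mice. It was higher by 0.34 ± 0.07 (adjusted p = 0.00380). Psmd4, which binds ubiquitin chains, rose by 0.29.

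Of the 8 lid subunits 7 rose, and Psmd8 did not pass. Psmd14, the metalloprotease that cuts ubiquitin off the substrate, read 10.76, 10.89, 10.83, 10.87 and 10.78 in Cre mice, against 10.52, 10.45, 10.50 and 10.45 in control mice. The groups were apart by 0.35 ± 0.06 (adjusted p = 0.00197). Psmd12 read 9.47, 9.39, 9.38, 9.35 and 9.43 in Cre mice, against 9.12, 8.99, 8.94 and 8.99 in control mice. It was higher by 0.39 ± 0.07 (adjusted p = 0.00136). Psmd11, a scaffold subunit whose level limits assembly of the capped proteasome in human embryonic stem cells, had the largest difference of the lid. It read 10.76, 10.56, 10.57, 10.59 and 10.39 in Cre mice, against 10.09, 10.15, 10.12 and 10.18 in control mice, a difference of 0.44 ± 0.08 (adjusted p = 0.00211). Psmd13 read 9.10, 8.99, 8.87, 8.97 and 9.09 in Cre mice, against 8.78, 8.79, 8.83 and 8.72 in control mice, and rose by 0.23 with a narrow gap between the groups. Psmd7, Psmd6 and Psmd3 rose by 0.34, 0.30 and 0.22. Psmd8, whose yeast counterpart joins the lid last, lay at 9.94 to 10.25 in Cre mice and 10.14 to 10.30 in control mice, and its -0.11 ± 0.08 did not pass (95% interval -0.28 to 0.07).

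Among the chaperones of base assembly, Psmd5 and Psmd9 rose and Psmd10 did not pass. Psmd9 read 6.998, 6.70, 6.97, 6.72 and 7.02 in Cre mice, against 6.69, 6.47, 6.58 and 6.34 in control mice. The groups were barely apart, and the difference was 0.36 ± 0.10 (adjusted p = 0.0220). Psmd5 read 7.17, 7.38, 7.21, 7.36 and 7.36 in Cre mice, against 7.14, 6.96, 6.94 and 6.75 in control mice. It differed by 0.35 ± 0.09 (adjusted p = 0.0139). Psmd10 (gankyrin) differed by 0.02 (95% interval -0.18 to 0.22).

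Of the activator caps measured, 2 of 3 rose and Psme1 did not pass. Psme3, the nuclear activator that works without ubiquitin, read 7.09, 7.34, 7.22, 7.19 and 7.35 in Cre mice, against 6.87, 6.68, 6.59 and 6.54 in control mice. It rose by 0.57 ± 0.09 (adjusted p = 0.000840), or 48.4% on the linear scale. Psme4, the large single-chain activator, read 10.02, 9.96, 10.11, 10.09 and 9.93 in Cre mice, against 9.71, 9.84, 9.70 and 9.69 in control mice. It rose by 0.29 ± 0.07 (adjusted p = 0.0109), with control replicate 2 nearest to the Cre arrays. Psme1, a subunit of the interferon-inducible activator, read 9.57, 9.54, 9.43, 9.52 and 9.63 in Cre mice, against 9.61, 9.63, 9.57 and 9.59 in control mice. These groups overlapped, and -0.06 ± 0.06 did not pass (95% interval -0.20 to 0.08).

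Further probe sets of the same genes were set beside the ones used. The 39 members had 84 probe sets, 21 members having more than 1, and of these probe sets 47 rose, 3 fell and 34 did not pass, where 28.6% of all probe sets passed in either direction. All 47 that rose were among the 66 brighter than the median probe set of the array. Of 29 further probe sets above that median, 18 rose and none fell by limma (21 and 1 at an unadjusted p of 0.05). The share over all probe sets above the median is not given here. Bright genes passed more often: 51.4% of those with a mean of at least 9 passed in either direction. In 3 genes probe sets passed in opposite directions: Psmb1, as given above, and Psmc2 and Psmd13, where a dim probe set fell. For Psmc2 that probe set averaged 3.18 in Cre mice and 3.73 in control mice (-0.55, adjusted p = 0.000872), unlike the brightest, given above. The remaining Psmc2 probe set was also bright (mean 9.96), but its 0.16 did not pass (adjusted p = 0.0756). For Psmd13 the dim one averaged 2.92 in Cre mice and 3.65 in control mice (-0.73, adjusted p = 0.000738), and again the brightest rose. With the mean of all probe sets taken per gene, Psmb1, Psmc2 and Psmd13 differed by 0.032, -0.023 and -0.026.

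**Figure D3:**
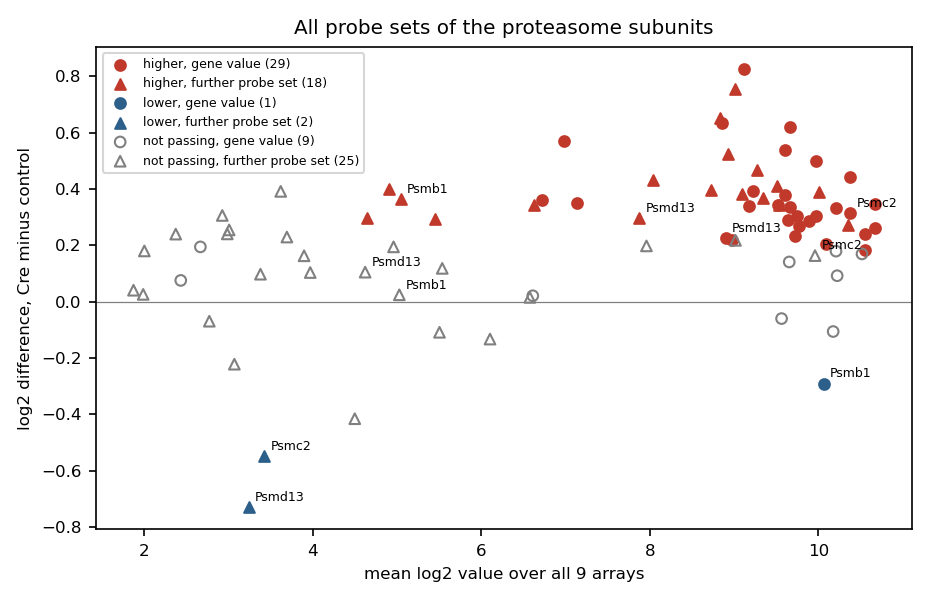
Every probe set of the 39 genes, by its mean log2 value over all 9 arrays and its log2 difference (Cre minus control). Circles are the probe sets used for the genes and triangles further ones, and colour gives the call (red, rose; blue, fell; open grey, not passing). The blue circle is Psmb1, and the 2 blue triangles are the dim probe sets of Psmc2 and Psmd13.

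The other genes of the pathway are read against the 15.5% of all genes that rose and the 18.9% that fell. None of the 5 measured assembly factors of the core (Psmg1 to Psmg4 and Pomp) passed by limma, and 0 had an unadjusted p under 0.05, with differences of -0.07 to 0.17. Of 15 receptors, deubiquitinases and inhibitors that bind the proteasome, 6 rose, 1 fell and 8 did not pass. Zfand2a, a stress-induced proteasome-binding protein, rose by 1.11 ± 0.10 (adjusted p = 3.50e-05), the shuttle receptor Rad23b by 0.53 ± 0.06 (adjusted p = 0.000176) and Zfand5, a ubiquitin-binding activator of the proteasome, by 0.88 ± 0.13 (adjusted p = 0.000640). Txnl1, a thioredoxin of the cap, fell by 0.47 ± 0.08 (adjusted p = 0.00133). Without probe sets that can match several transcripts Zfand5 differed by 0.13 and did not pass, and Txnl1 was higher by 0.37 (adjusted p = 0.00860).

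The segregase p97, which pulls ubiquitinated proteins out of complexes and hands them to the proteasome, is encoded by Vcp. Of p97 and its cofactors 8 of 14 rose and none fell by limma (8 and 0 at an unadjusted p of 0.05), with a median of 0.33, where 15.5% of all genes rose. Ufd1 rose by 0.77 ± 0.07 (adjusted p = 3.14e-05), the cofactor Ubxn6 by 0.73 ± 0.09 (adjusted p = 0.000161) and Plaa by 0.54 ± 0.08 (adjusted p = 0.000486). The other Ufd1 probe set read -0.21 and did not pass. Of 13 ubiquitin-conjugating and activating enzymes 4 rose, 1 fell and 8 did not pass. The conjugating enzymes Cdc34, Ube2n and Ube2h rose by 0.96 ± 0.07 (adjusted p = 1.24e-05), 0.68 ± 0.08 (adjusted p = 0.000120) and 0.63 ± 0.09 (adjusted p = 0.000401), and Ube2g2 fell by 0.37 ± 0.08 (adjusted p = 0.00629).

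Complexes that resemble parts of the proteasome were counted the same way, and their shares of higher members lay near the 15.5% of all genes, or the 26.2% of genes with a mean of at least 9, that rose. The COP9 signalosome, whose subunits match those of the lid, had 2 of 9 members higher and none lower by limma (2 and 0 at an unadjusted p of 0.05), with a median of -0.05. Its metalloprotease subunit Cops5 rose by 0.28 and Cops6 by 0.23, a call that Cops6 lost without Cre replicate 2 or 5 or any 1 control array. The translation factor eIF3, built from the same domain families, had 2 of 11 higher and 3 lower, with a median of -0.04. Eif3f, Eif3h and Eif3e fell by 0.55, 0.57 and 0.26, and Eif3b and Eif3c rose by 0.30 and 0.21. Eif3b lost its call without Cre replicate 3 or 5 or control replicate 2, 3 or 4, and Eif3c without Cre replicate 1, 3 or 5 or any 1 control array. The ring-shaped chaperonin CCT had 2 of 8 higher (Cct3 by 0.37, Cct6a by 0.34) and none lower by limma (3 and 0 at an unadjusted p of 0.05). Without probe sets that can match several transcripts Eif3e differed by 0.086 and Cct3 by -0.013. The differences between these complexes and the proteasome were not tested.

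**Figure D4:**
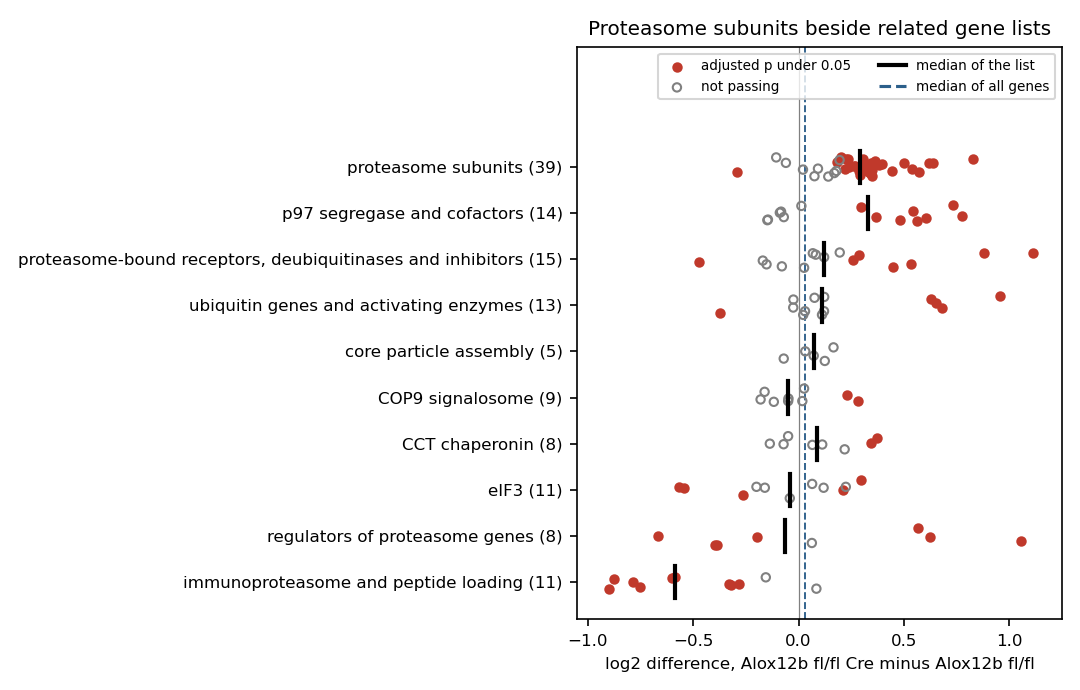
Each point is a gene, placed by its log2 difference (Alox12b fl/fl Cre minus Alox12b fl/fl), with the number of measured genes beside each list; filled points passed at an adjusted p of 0.05, open ones did not. Thick bars are list medians and the dashed line is the median of all genes (0.03); the proteasome median is 0.29 and that of the immunoproteasome and peptide loading list -0.59.

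The immunoproteasome belongs to the machinery that makes and loads peptides for MHC class I, and 9 of its 11 genes fell, none rose by limma (9 and 0 at an unadjusted p of 0.05) and Psmb10 and Erap1 did not pass, with a median of -0.59, where 18.9% of all genes fell. The loading factor Tapbp fell by 0.87 ± 0.10 (adjusted p = 0.000132) and Nlrc5, the transcriptional activator of class I genes, by 0.60 ± 0.08 (adjusted p = 0.000372). Leaving out probe sets that can match several transcripts gave 5 lower members. That filter removed the only probe set of Tap2 and replaced the one used for Psmb8, so the 5 are not out of the same 11 measurements.

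Of the transcription factors that drive proteasome genes, Nfe2l1 was lower and Nfe2l2 higher. Nfe2l1 read 9.14, 9.27, 9.16, 9.28 and 9.41 in Cre mice, against 9.95, 9.85, 9.94 and 9.94 in control mice. It fell by 0.67 ± 0.07 (adjusted p = 0.000105), with no overlap, on the 1 probe set assigned to it. Nfe2l2 (NRF2) read 9.72, 9.96, 9.26, 9.97 and 9.87 in Cre mice, against 9.30, 9.03, 9.18 and 9.25 in control mice. It rose by 0.57 ± 0.14 (adjusted p = 0.0120), although Cre replicate 3 lay within the control range. The related Nfe2l3 rose by 0.63 ± 0.13 (adjusted p = 0.00416), as did the small Maf partner Maff, by 1.06 ± 0.15 (adjusted p = 0.000636). In all, 3 of the 8 regulators rose, 4 fell and Mafk did not pass, where 15.5% of all genes rose and 18.9% fell. Beside Nfe2l1, those that fell were Keap1, Mafg and Ngly1, by 0.40, 0.38 and 0.20.

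Markers of other cells moved with the groups, and their part in these results was not tested. Their counts stand beside the 15.5% of all genes that rose and the 18.9% that fell. Fibroblast markers fell in 6 of 6, with summed levels of 13.06 to 13.84 in Cre mice and 13.95 to 14.60 in control mice. Beside the T cell and Langerhans cell markers given above, macrophage markers fell in 3 of 5 (10.88 to 11.69 in Cre mice, 11.61 to 11.98 in control mice), while melanocyte markers rose in 5 of 5 (7.22 to 8.99 in Cre mice, 5.94 to 6.33 in control mice). Neutrophil markers fell in 1 of 4, and Elane, Ngp and Camp lay below the array median throughout. Endothelial markers had 1 of 5 higher and 1 lower, and suprabasal keratinocyte and muscle markers had none that passed by limma (1 suprabasal marker lower at an unadjusted p of 0.05), although muscle reached 9.98 on Cre replicate 4 against at most 6.84 on the other Cre arrays. By array, the fibroblast sum was 13.84, 13.10, 13.06, 13.32 and 13.30 in Cre replicates 1 to 5. It was 13.95, 14.45, 14.60 and 14.55 in control replicates 1 to 4.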

How the data were processed

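The authors deposited 1 table of log2 values for 45037 probe sets on 9 arrays. Per the submitters' processing notes it was made with affy, no version given. How background was corrected and how arrays were normalised and summarised is not given in the sources used here. That the scale is log2 was inferred from the range. Gene names came from GEO's platform annotation (34945 with 1 symbol, 932 with several, 9160 not listed). Groups were compared with limma 3.58.1 in R 4.3.3 (lmFit, eBayes, two-sided, 7 residual degrees of freedom, no covariates, no filter), tested on simulated data first. Within-array differences of 3 catalytic pairs were compared by exact permutation. The members, gene lists and tests were chosen with earlier results of these data known. Values on every array are given, per role, for the 2 members with the lowest adjusted p and the one with the largest difference, for the catalytic subunits, Psme1, genes with discordant probe sets, Nfe2l1, Nfe2l2 and Alox12b. Of other lists up to 3 genes with the lowest adjusted p that passed and up to 2 that passed against the majority are named, with genes outside this rule named after their values were seen. Alternatives were other normalisations, filters, variance models, sex as a covariate (from Xist and Y-linked genes), a replicate block, other probe set choices, an adjusted p of 0.01, and fits without 1 array. Motifs other than TGACNNNGC and CCAAT, the males-only comparison and the limit of 9 were added after the data were seen.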

Additional observations from a re-analysis of the deposited data

Results flagged for a closer look

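Of the 146 groups of values examined, 7 held 1 array far from the rest of its group, as chance gives in about 1 in 20 groups, and 2 of the 7 concern proteasome subunits. Control replicate 1 read 2.16 for Psma8, against 2.68 to 2.70 on the other control arrays. Control replicate 2 read 9.84 for Psme4, against 9.69 to 9.71. Control replicate 1 read 8.44 for Psmb9, against 8.18 to 8.23, and 8.52 for Ube2g2, against 8.66 to 8.68. Control replicate 2 read 9.85 for Nfe2l1, against 9.94 to 9.95, and 10.17 for Cct6a, against 10.29 to 10.30. Cre replicate 5 read 9.71 for Rad23b, against 9.82 to 9.85 on the other Cre arrays. Each of these calls, or its absence, was the same without the array concerned.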

How the results depend on the processing

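Leaving out 1 array gave 23 to 28 members higher (the lowest without control replicate 2) and 1 lower each time, and median differences of 0.27 to 0.31. The median was 0.26 after quantile normalisation (25 members higher), 0.33 with array medians subtracted (32 higher) and 0.23 with all probe sets of a gene averaged (26 higher). After quantile normalisation Psma2, Psma6, Psmb4 and Psmc5 lost their calls. Without probe sets that can match several transcripts 23 of 34 measured members were higher. The threshold of 0.01 left 17 members higher, with 1526 genes higher and 2179 lower. With sex as a covariate 27 members were higher and 1 lower. Males alone (2 Cre, 3 control) gave 15 members and 1874 genes higher. By limma 0 members were lower with probe sets averaged (0 at an unadjusted p of 0.05), where Psmb1 was 0.032, Psmc2 -0.023 and Psmd13 -0.026. Likewise 0 were lower without probe sets that can match several transcripts (1 at an unadjusted p of 0.05), where Psmb1 was 0.36, Psma5 -0.069, Txnl1 0.37, Ufd1 -0.21, Eif3e 0.086 and Cct3 -0.013. The cause was not tested. The Psma5 value is that of the dim probe set given above. Psmb10 minus Psmb7 was -0.11 after quantile normalisation and -0.18 after cyclic loess, neither passing, and -0.30 to -0.17 without single arrays. Same-numbered Cre and control arrays had correlations of deviations of -0.27 to 0.08. Such correlations cannot show whether same-numbered mice were paired by litter or handling. With the replicate block 17 members were higher, on 3 residual degrees of freedom, and in the paired sign-flip test of 4 pairs, which cannot go below 0.125, Psmb9 minus Psmb6 changed by -1.55, Psmb8 minus Psmb5 by -1.09 and Psmb10 minus Psmb7 by -0.27. Psma8 and Psmb11 were dim on all arrays, which limits what can be said of them.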
